A study of Mus musculus with 12 samples.

Results

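The genes described here supply a macrophage with building blocks: pyrimidine and purine nucleotides, polyamines, serine and one-carbon units, asparagine and proline, and the amino acids taken up from the medium. They were chosen by name, as 41 gene symbols, and a member was the array row annotated with exactly that symbol. Of the 41 symbols, 36 had such a row, and all 36 exceeded the limit for dim rows and were among the 14079 genes tested, of 22180 genes with a row. Pfas, Impdh2, Sms, Amd1 and Pycr1 had no row with that symbol alone and were not analysed here. Gart had 3 rows and Slc1a5 had 2, and each was represented by its brightest row, taken as the mean of the 12 arrays. The list was put together with results of these arrays already in view, so the counts below describe the members and are not independent support for a direction.

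Nucleotides are made either from scratch, by joining amino acid nitrogen, one-carbon units and activated ribose into a ring, or by salvage of finished bases and nucleosides. Folate enzymes carry the one-carbon units, which come largely from serine, and ornithine decarboxylase and spermidine synthase turn ornithine into polyamines. Macrophages draw on these routes when they divide and when they are activated, and Myc and ATF4 are known transcriptional regulators of many of the enzymes and transporters.

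Expression was measured on 12 Affymetrix Mouse Gene 2.1 ST arrays of bone marrow-derived macrophages, which were grown with medium conditioned by L929 cells, a fibroblast line whose secretions drive macrophage growth. The wild-type (WT) groups carried no named transgene. The knockout (KO) groups came from Rasgef1b fl/fl vav-iCre mice, in which Cre, expressed from the Vav promoter in blood-forming cells, acts on floxed Rasgef1b alleles. Each genotype was given saline or R848, a small-molecule agonist of Toll-like receptor 7, in culture, with 3 arrays in each of the 4 groups. The R848 treatment lasted 4 h, and the labels give no time for saline. No floxed group without Cre and no group with Cre alone is named, so the deletion cannot be told apart from Cre or strain background. The labels do not name the animals or cultures behind the replicates, so p-values reflect array-to-array spread that could be technical. Values are log2 signals from RMA, and every difference below is on that log2 scale.

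The check of the targeted gene came first. Rasgef1b, an exchange factor for Ras-family proteins, read 9.03, 9.19 and 9.14 in wild type with saline and 8.63, 7.88 and 8.72 in the knockout. With R848 it read 9.84, 9.84 and 9.69 in wild type and 9.45, 8.60 and 9.36 in the knockout. The knockout arrays lay below the wild-type arrays in both treatments, and the row still gave a signal in every knockout array. Whether its probes lie inside the deleted part is not given in the sources used here. Averaged over treatments the difference was -0.68 ± 0.15 (SE, limma adjusted p = 0.036). All 11 macrophage markers with a row passed the dim limit, with values from 5.19 to 12.17. The same held for 5 of 7 dendritic cell markers, 4 of 6 fibroblast, 2 of 9 neutrophil, 2 of 5 mast cell and basophil, 1 of 4 B cell, 1 of 5 T and NK cell and 1 of 2 erythroid markers. In bulk RNA, fewer cells of a type and less RNA per cell cannot be told apart.

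Promoter sequence is shown for 6 members because the known regulators of this pathway bind short elements and the members that carry the same letters can be set side by side. RefSeq windows (build GRCm38.p6) matched 31 of the 36 members; Dhodh, Srm, Slc1a5, Slc7a5 and Slc38a1 had none. In the 250 bases upstream of each start, 4 motifs were searched on both strands. They were CACGTG, the E-box bound by Myc and related factors, TGATGNAA, the composite element bound by ATF4 with C/EBP partners, TGACGTCA, the cyclic AMP response element, and GGGCGG, the GC box. The whole upstream windows of Asns (chr6:7693210-7693459, minus strand) and Umps (chr16:33967039-33967288, minus strand) are printed because these genes gave a large rise and the largest fall with R848 in wild type. Capitals mark a match to any of the 4 motifs on either strand, so CCGCCC is a GC box read on the other strand.
Asns: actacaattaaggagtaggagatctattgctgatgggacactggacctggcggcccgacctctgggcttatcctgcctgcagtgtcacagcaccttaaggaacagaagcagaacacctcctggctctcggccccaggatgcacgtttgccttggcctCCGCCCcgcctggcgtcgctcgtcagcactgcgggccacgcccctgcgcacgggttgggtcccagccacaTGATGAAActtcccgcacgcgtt
Umps: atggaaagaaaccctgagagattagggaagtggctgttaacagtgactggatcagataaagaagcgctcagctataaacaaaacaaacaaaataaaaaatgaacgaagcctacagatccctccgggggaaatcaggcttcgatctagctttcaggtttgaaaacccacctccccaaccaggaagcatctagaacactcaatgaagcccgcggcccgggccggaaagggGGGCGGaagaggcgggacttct

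The composite element was found upstream of 2 members, Asns and Prps1, and the E-box upstream of 3, Paics, Atic and Aldh18a1. The remaining matches are printed in 30 bases, with only the E-box or composite element in capitals; the GC box before the E-box of Atic is left in lower case. Prps1 lies at chrX:140456422-140456451 on the plus strand, Paics at chr5:76951088-76951117 on the plus strand, Atic at chr1:71557126-71557155 on the plus strand and Aldh18a1 at chr19:40588504-40588533 on the minus strand.
Prps1: ggctatctttgTGATGTAAaaagtgcttta
Paics: gcctcggaaagCACGTGgagggacctgctg
Atic: gaggaggggcgggacctcggggtCACGTGg
Aldh18a1: gagggggccgcCACGTGgagcgtgggcgcg

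These elements also occurred upstream of many other genes. The E-box occurred in 6.02% of all 32851 upstream windows of this length, the composite element in 3.45%, the cyclic AMP element in 1.55% and the GC box in 32.7%. Of the 38 windows of the 31 members, 3 held the E-box, 2 the composite element, 0 the cyclic AMP element and 25 the GC box. The GC box windows belonged to 24 members. The GC box was thus more frequent in the members' windows than over all windows, a difference that was not tested. A match is a run of letters and was not tested for binding. Of the 2 members with the composite element, Asns rose with R848 and Prps1 did not pass the test. Of the 3 with the E-box, Paics fell and Atic and Aldh18a1 did not pass. Odc1 and Mthfd2 rose more than Asns in wild type, and their windows held neither the E-box nor the composite element. The part of these elements in the response was not tested.

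The first comparison asked what R848 did to these genes in each genotype. In wild-type macrophages Odc1, Slc7a5, Mthfd2, Asns, Srm, Slc3a2 and Ctps rose. Umps, Prps2, Ppat and Mthfd1 gave the largest falls, while Cad, Prps1, Gart, Adsl and Atic of the same nucleotide routes did not pass. In all, 7 of 36 members rose and 12 fell, 19.4% and 33.3%, where 14.6% of all genes tested rose and 23.6% fell, 38.3% together (limma, adjusted p under 0.05). The median change of the members was -0.10, and that of all genes was -0.02. In knockout macrophages 5 members rose and 12 fell, 13.9% and 33.3%, beside 15.6% and 26.0% of all genes, 41.6% together. The members' median was -0.09 there and that of all genes -0.03. The same 12 genes were called lower in both genotypes, among them Slc1a5, whose second row has the opposite sign, and 4 rose in both: Odc1, Slc7a5, Mthfd2 and Asns. The R848 arrays did not overlap the saline arrays for 8 members that were higher and 14 that were lower in wild type, beside 19.5% and 28.6% of all genes. In the knockout this held for 5 and 12 members, beside 19.6% and 29.3% of all genes. Over all genes, 88.9% of those that fell and 84.4% of those that rose in wild type did so in the knockout too; for the members these shares were 100% and 57.1%.

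The balance of rises and falls depended on how the arrays were brought to a common scale. Centring each array on its median moved the median change of all genes to 0.11 in wild type and 0.12 in the knockout. The members' split then became 8 higher and 6 lower in wild type and 8 higher and 11 lower in the knockout, and their medians became 0.03 and 0.05. With cyclic loess the splits were 7 and 8 in wild type and 8 and 12 in the knockout. Odc1, Slc7a5, Mthfd2, Asns, Umps, Prps2, Ppat, Paics, Mthfd1 and Slc38a1 kept their wild-type calls under all 22 alternatives run for them.

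**Figure D1:**
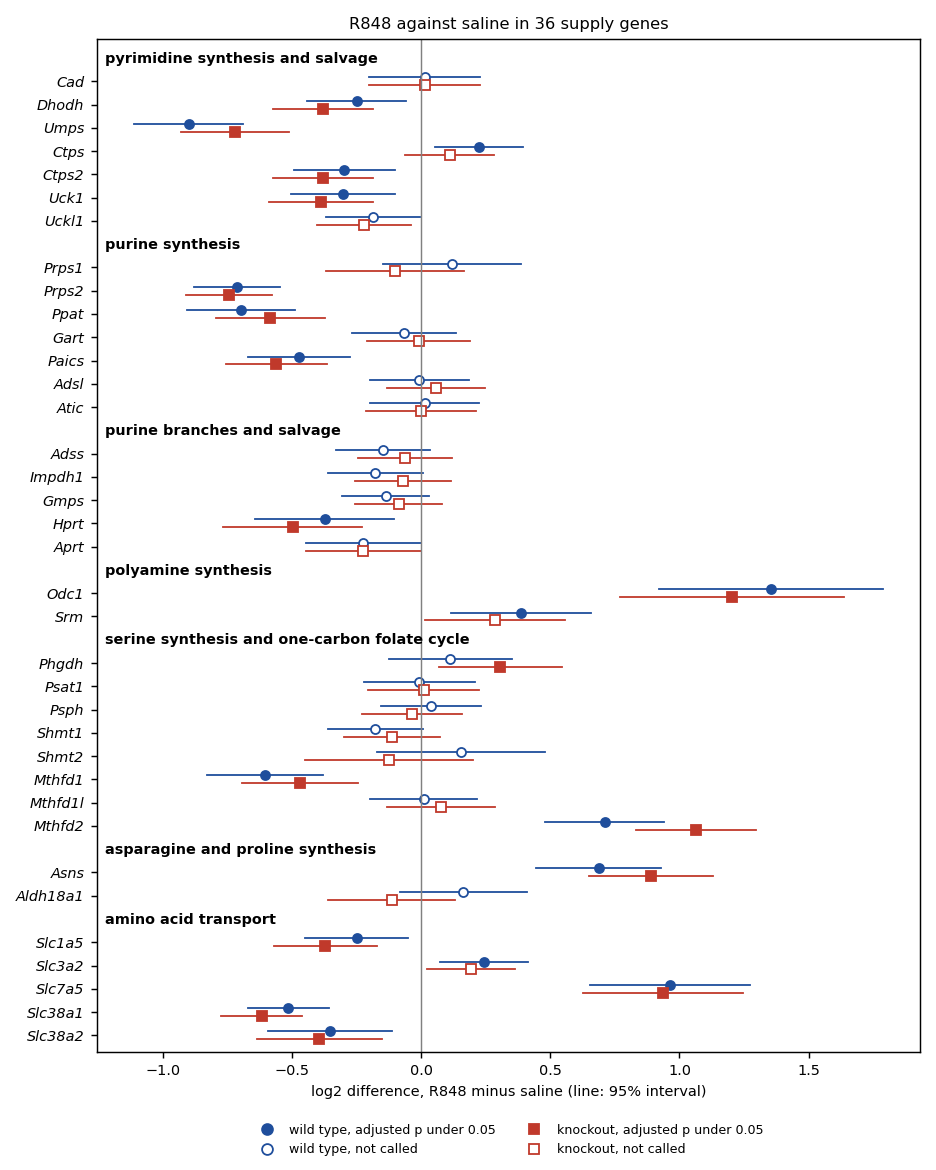
Change with R848 (log2, horizontal axis) for the 36 members, ordered by role, with wild type and knockout side by side, 3 arrays per group; lines are 95% intervals and filled symbols have a limma adjusted p under 0.05. Odc1 lies farthest to the right in both genotypes (1.35 and 1.20), and Umps (-0.90 and -0.72) and Prps2 (-0.71 and -0.74) farthest to the left.

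Over all genes 14.6% rose and 23.6% fell in wild type, and 15.6% and 26.0% in the knockout. The counts by role stand beside these shares. Of 7 members of pyrimidine synthesis and salvage, 1 rose and 4 fell in wild type, and 0 rose and 4 fell in the knockout. Of the wild-type falls only that of Umps passed with median centring or cyclic loess; those of Dhodh, Ctps2 and Uck1 did not. Umps, the bifunctional enzyme that makes uridine monophosphate in the last steps of the route, read 7.13, 6.94 and 7.12 with saline and 5.92, 6.30 and 6.27 with R848 in wild type. In the knockout it read 6.91, 6.76 and 6.88 with saline and 6.11, 6.16 and 6.12 with R848. Every R848 array lay below every saline array of its genotype. The change was -0.90 ± 0.10 (SE, n = 3 per group, limma adjusted p = 3.028e-06), or 1.87-fold lower, in wild type and -0.72 ± 0.10 (limma adjusted p = 2.624e-05) in the knockout. Dhodh, the mitochondrial enzyme that makes orotate for Umps, fell by less, with -0.25 (limma adjusted p = 0.03981) and -0.38 (limma adjusted p = 0.003084). The wild-type call for Dhodh was lost under 9 alternatives, among them each wild-type array left out. Cad, which carries the first steps of the route on a single protein, showed differences of 0.01 in both genotypes.

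Among the later pyrimidine enzymes, the paralogues that make cytidine triphosphate were called in opposite directions in wild type. Ctps read 5.40, 5.58 and 5.58 with saline and 5.75, 5.69 and 5.79 with R848, a rise of 0.22 (95% interval 0.05 to 0.39, limma adjusted p = 0.03807). Ctps2 read 6.88, 7.0 and 7.09 with saline and 6.62, 6.71 and 6.75 with R848, a fall of 0.30 on the log2 scale (95% interval -0.49 to -0.10, limma adjusted p = 0.01752). Neither gene's groups overlapped, and the difference between the paralogues was not itself tested. Both calls were lost under 4 of 22 alternatives. For Ctps these left out wild-type saline replicate 1 or any wild-type R848 array, and for Ctps2 they were median centring, cyclic loess, and leaving out wild-type saline replicate 3 or R848 replicate 1. In the knockout Ctps2 fell by 0.38 (limma adjusted p = 0.003355), whereas Ctps differed by 0.11 (limma adjusted p = 0.3019).

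Uridine salvage gave a further pair. Uck1, a uridine-cytidine kinase, read 5.34, 5.45 and 5.57 with saline and 5.14, 5.19 and 5.12 with R848 in wild type. It read 5.47, 5.42 and 5.63 with saline and 5.31, 4.99 and 5.06 with R848 in the knockout. The arrays did not overlap in either genotype, and the changes were -0.30 (limma adjusted p = 0.01828) and -0.39 (limma adjusted p = 0.003666). The wild-type call was lost with both scalings and without replicate 3 of either wild-type group. The related Uckl1 differed by -0.19 (limma adjusted p = 0.1019) and -0.22 (limma adjusted p = 0.05033). With the replicate number as a block, which the knockout arrays allow because same-numbered arrays deviated together, the Uckl1 difference in the knockout passed, with a limma adjusted p of 0.02001 over all arrays and 0.04042 over the knockout arrays alone.

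In purine synthesis the genes that fell act at its entry and at a single later enzyme. Of 7 members analysed, 0 rose and 3 fell in each genotype: Prps2, Ppat and Paics. Prps2, which makes the activated ribose phosphate used in nucleotide synthesis from scratch, read 6.95, 6.91 and 7.10 with saline and 6.26, 6.27 and 6.29 with R848 in wild type. It read 7.02, 6.95 and 6.93 with saline and 6.10, 6.24 and 6.33 with R848 in the knockout. The change was -0.71 ± 0.08 (limma adjusted p = 3.249e-06), 1.64-fold lower, and -0.74 ± 0.08 (limma adjusted p = 1.896e-06).

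Its paralogue Prps1 did not pass. Prps1 read 5.60, 5.86 and 5.78 with saline and 5.83, 5.94 and 5.83 with R848 in wild type, a difference of 0.12 (95% interval -0.15 to 0.39, limma adjusted p = 0.5095). The interval for Prps2 was -0.88 to -0.55, which does not meet it. In the knockout Prps1 differed by -0.10 (limma adjusted p = 0.569). Prps1 carries the composite element printed above, and its R848 and saline arrays overlapped in both genotypes.

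Ppat catalyses the committed step of purine synthesis. It read 6.45, 6.50 and 6.74 with saline and 5.73, 5.97 and 5.90 with R848 in wild type, and 6.19, 6.24 and 6.28 with saline and 5.53, 5.61 and 5.82 with R848 in the knockout. The arrays were separate in both genotypes, with changes of -0.70 ± 0.10 (limma adjusted p = 4.02e-05) and -0.58 ± 0.10 (limma adjusted p = 0.0001967). Paics, a bifunctional enzyme of the middle steps, fell by 0.47 on the log2 scale in wild type (limma adjusted p = 0.0007271) and by 0.56 in the knockout (limma adjusted p = 0.0001554). Ppat and Paics are neighbours on chromosome 5 that run in opposite directions, and their RefSeq gene bodies overlap by 277 bases in GRCm38.p6. Gart, Adsl and Atic, which act at steps on either side of Paics or after it, differed by -0.07, -0.01 and 0.01 in wild type and by -0.01, 0.06 and 0.00 in the knockout. A second row of Gart above the dim limit gave 0.02 and -0.50 for the same comparisons.

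In the branches to adenine and guanine nucleotides and in salvage, 1 of 5 members analysed fell in each genotype. Hprt, which salvages hypoxanthine and guanine, read 9.31, 9.45 and 9.75 with saline and 9.04, 9.33 and 9.02 with R848 in wild type. It read 9.58, 9.70 and 9.57 with saline and 8.88, 9.22 and 9.26 with R848 in the knockout. The wild-type groups overlapped (change -0.37, limma adjusted p = 0.02868), and the knockout groups did not (-0.50, limma adjusted p = 0.00489). The wild-type call was lost with median centring and without saline replicate 3, R848 replicate 1 or R848 replicate 3, with a largest limma adjusted p of 0.1464. Aprt, the adenine counterpart, differed by -0.22 in both genotypes (limma adjusted p = 0.1119 and 0.1047). Impdh1 and Gmps, on the guanine branch, differed by -0.18 and -0.14 in wild type, and Adss, on the adenine branch, by -0.15. None of these passed in either genotype. The paralogue of Impdh1, Impdh2, was not analysed here.

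Both polyamine enzymes analysed rose in wild type, and 1 of the 2 rose in the knockout. Odc1, the rate-limiting ornithine decarboxylase, read 7.87, 7.58 and 7.67 with saline and 9.12, 9.23 and 8.83 with R848 in wild type. In the knockout it read 7.65, 7.16 and 8.24 with saline and 9.12, 8.73 and 8.81 with R848. All R848 arrays lay above all saline arrays of the same genotype, although the knockout saline arrays spanned more than 1 log2 unit. The rise was 1.35 ± 0.20 (limma adjusted p = 7.218e-05) in wild type and 1.20 ± 0.20 (limma adjusted p = 0.0001989), or 2.3-fold, in the knockout. Srm, which makes spermidine, read 7.97, 7.93 and 7.84 with saline and 8.21, 8.34 and 8.35 with R848 in wild type, a rise of 0.39 ± 0.13 (limma adjusted p = 0.02476) that was lost without replicate 2 or 3 of either wild-type group. In the knockout it read 7.24, 7.58 and 7.77 with saline and 7.85, 7.58 and 8.02 with R848, a difference of 0.29 with groups that overlapped (limma adjusted p = 0.0861). Sms and Amd1 were not analysed here.

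Serine synthesis and the folate cycle did not move as a unit. Of 8 members, 1 rose and 1 fell in wild type, and 2 rose and 1 fell in the knockout. Mthfd2, the mitochondrial folate enzyme that oxidises serine-derived one-carbon units, read 7.38, 7.44 and 7.52 with saline and 8.11, 8.27 and 8.09 with R848 in wild type. It read 6.85, 7.03 and 7.29 with saline and 8.21, 7.95 and 8.20 with R848 in the knockout. The rise was 0.71 ± 0.11 (limma adjusted p = 8.296e-05), 1.64-fold, in wild type and 1.06 ± 0.11 (limma adjusted p = 1.346e-06), 2.09-fold, in the knockout.

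The cytosolic counterpart moved the other way. Mthfd1, a trifunctional enzyme that supplies formyl-folate to purine synthesis, read 6.48, 6.61 and 6.23 with saline and 5.85, 5.76 and 5.90 with R848 in wild type. It read 6.01, 5.92 and 6.18 with saline and 5.72, 5.47 and 5.51 with R848 in the knockout. The groups did not overlap, and the changes were -0.60 ± 0.10 (limma adjusted p = 0.0002799) and -0.47 ± 0.10 (limma adjusted p = 0.001974). Mthfd1l, the mitochondrial formyl-folate synthetase, differed by 0.01 in wild type and 0.08 in the knockout.

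The enzymes that make serine itself gave small differences. Phgdh, the first enzyme, read 4.69, 4.80 and 4.59 with saline and 4.76, 4.67 and 4.99 with R848 in wild type, a difference of 0.11 (limma adjusted p = 0.4818). In the knockout it read 4.63, 4.75 and 4.68 with saline and 5.17, 4.74 and 5.07 with R848, a change of 0.31 (limma adjusted p = 0.0381) with groups that overlapped at 4.74 and 4.75. The Phgdh call was lost under 7 of 22 alternatives, and its values are close to the dim limit of 4.31 to 4.35. Psat1, the second enzyme, differed by -0.01 in wild type and 0.01 in the knockout, and Psph, the last, by 0.04 and -0.04. The serine hydroxymethyltransferases form a pair. Shmt1, the cytosolic form, differed by -0.18 in wild type (95% interval -0.36 to 0.01), and Shmt2, the mitochondrial form, by 0.15 (95% interval -0.17 to 0.48). Neither passed in either genotype.

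Asparagine synthetase rose in both genotypes. Asns read 7.57, 7.74 and 7.66 with saline and 8.21, 8.48 and 8.34 with R848 in wild type, and 7.25, 7.30 and 7.57 with saline and 8.40, 8.03 and 8.36 with R848 in the knockout. The groups were far apart, with rises of 0.69 ± 0.11 (limma adjusted p = 0.0001689), 1.61-fold, and 0.89 ± 0.11 (limma adjusted p = 1.294e-05), 1.85-fold. Aldh18a1, which starts proline synthesis from glutamate, read 6.10, 6.10 and 6.06 with saline and 6.13, 6.37 and 6.25 with R848 in wild type. It read 5.78, 6.05 and 6.19 with saline and 6.11, 5.70 and 5.87 with R848 in the knockout. The differences of 0.16 (limma adjusted p = 0.3033) and -0.11 (limma adjusted p = 0.4734) did not pass.

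Of the 5 amino acid transporters, 2 were called higher and 3 lower in wild type, and 1 higher and 3 lower in the knockout, with Slc1a5 counted by the row used. Slc7a5, the light chain of the LAT1 exchanger for large neutral amino acids, read 6.38, 6.43 and 6.44 with saline and 7.24, 7.57 and 7.33 with R848 in wild type. It read 5.98, 6.09 and 6.37 with saline and 7.33, 6.70 and 7.22 with R848 in the knockout. The rises of 0.96 ± 0.14 (limma adjusted p = 7.313e-05), 1.95-fold, and 0.94 ± 0.14 (limma adjusted p = 8.817e-05), 1.91-fold, came from groups that did not overlap. Slc3a2, the heavy chain that pairs with it, rose by 0.24 in wild type (limma adjusted p = 0.02351), a call lost without saline replicate 1 or 2 or R848 replicate 2, and differed by 0.19 in the knockout (limma adjusted p = 0.06414).

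Slc38a1 and Slc38a2, sodium-coupled carriers of glutamine and other small neutral amino acids, fell. Slc38a1 read 9.07, 9.02 and 9.02 with saline and 8.53, 8.55 and 8.49 with R848 in wild type, and 9.0, 8.91 and 9.05 with saline and 8.45, 8.25 and 8.41 with R848 in the knockout. The arrays within each group lay close together, and the changes were -0.51 ± 0.07 (limma adjusted p = 4.47e-05) and -0.62 ± 0.07 (limma adjusted p = 6.644e-06). Slc38a2 fell by 0.35 on the log2 scale in wild type (limma adjusted p = 0.02103) and by 0.39 in the knockout (limma adjusted p = 0.01054). Both Slc38a2 calls were lost with median centring, the wild-type call without replicate 3 of either group, and the knockout call without saline replicate 1. Slc1a5, another glutamine carrier, passed at -0.25 (limma adjusted p = 0.04837) and -0.37 (limma adjusted p = 0.004971). Its second row gave 0.08 and 0.35, the opposite sign, its wild-type call was lost under 13 of 22 alternatives, and with the mean of both rows the knockout value was -0.01 (limma adjusted p = 0.9497), so no direction is given for Slc1a5.

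**Figure D2:**
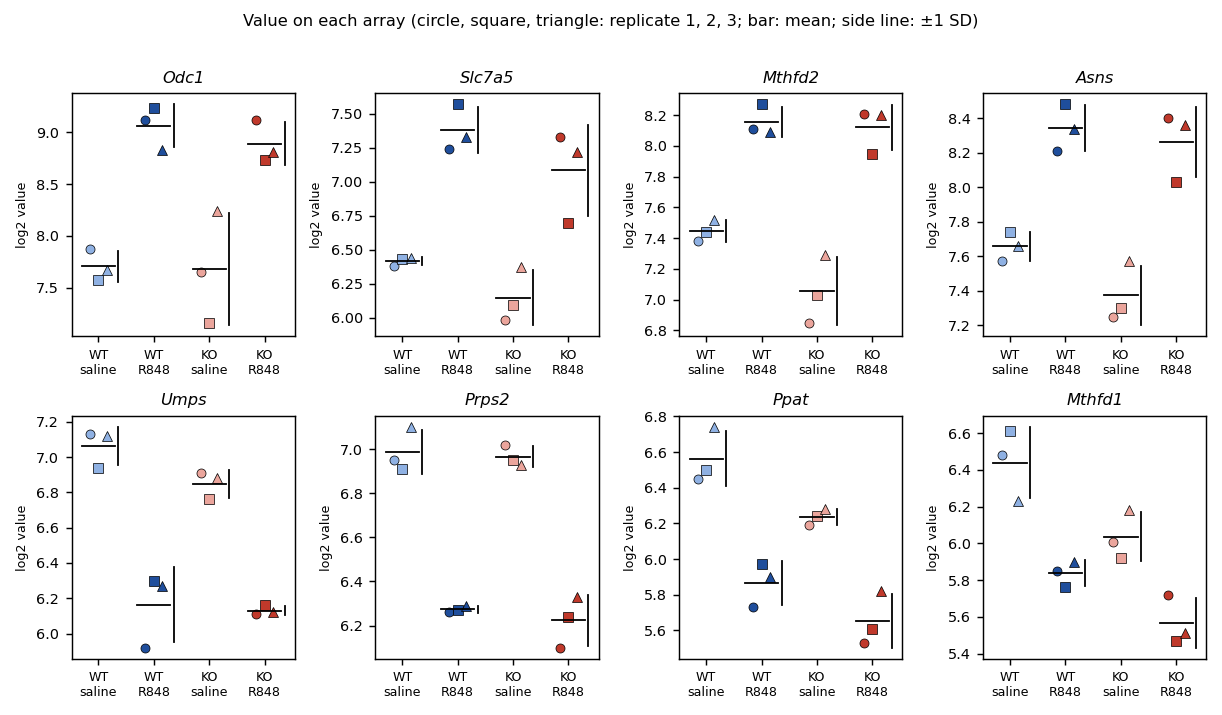
Log2 value on each of the 12 arrays for members with large R848 changes; points are arrays, bars are group means and side lines are 1 SD (n = 3). In wild type the saline and R848 arrays of each gene shown are separate.

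The surrounding pathway genes moved in both directions. The counts for these lists and those that follow stand beside the shares over all genes. These were 14.6% higher and 23.6% lower in wild type and 15.6% and 26.0% in the knockout. Of 21 other pyrimidine and deoxynucleotide genes tested, 3 rose and 11 fell in wild type and 3 rose and 10 fell in the knockout. The largest wild-type changes were Cmpk2 (1.55), an interferon-responsive mitochondrial nucleotide kinase, Rrm2 (-1.27), a subunit of ribonucleotide reductase, and Nt5c3 (1.23), a nucleotidase. Of 12 other purine genes, 5 rose and 5 fell in wild type, and 5 rose and 4 fell in the knockout. Gda, guanine deaminase, rose by 1.76, Urah, which acts on a product of urate oxidation, by 1.36 from saline values at the dim limit, and Ampd3, an AMP deaminase, by 1.06. Other enzymes of purine breakdown went both ways. Nt5c2 fell by 1.04 and Xdh by 0.48 on the log2 scale, whereas Pnp, purine nucleoside phosphorylase, rose by 0.78. Of 14 other polyamine genes, 3 rose and 3 fell in wild type and 3 rose and 4 fell in the knockout. Atp13a2, a lysosomal polyamine exporter, fell by 0.86 on the log2 scale, the related Atp13a3 fell by 0.48, and Sat1, which acetylates spermidine and spermine, rose by 0.48.

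Of 18 other serine, glycine and folate genes, 3 rose and 7 fell in wild type and 2 rose and 6 fell in the knockout. Mthfs, which returns formyl-folate to the active pool, rose by 1.44, whereas Mtr, methionine synthase, fell by 1.02 on the log2 scale and the folate carrier Slc46a1 by 0.63. Of 17 other amino acid transporters, 5 rose and 5 fell in wild type and 6 rose and 6 fell in the knockout. The cystine importer Slc7a11 rose from saline values below the dim limit, so no size of its rise is given. Slc7a2, a carrier of arginine, rose by 1.96 in wild type and Slc15a3, a lysosomal peptide and histidine carrier, by 1.61. Of 12 other enzymes of glutamine, aspartate, proline and branched-chain metabolism, 1 rose and 6 fell in wild type and 1 rose and 5 fell in the knockout. The falls were led by Glul, glutamine synthetase (-0.78), Got1, an aspartate aminotransferase (-0.62), and Pycrl, a pyrroline carboxylate reductase (-0.47).

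The regulators named in the background differed from each other. Atf4 rose by 0.51 ± 0.08 in wild type (limma adjusted p = 6.32e-05) and 0.65 ± 0.08 in the knockout (limma adjusted p = 5.58e-06), while Myc differed by 0.09 (limma adjusted p = 0.65) and 0.26 (limma adjusted p = 0.118). Of 21 amino acid stress response genes, 10 rose and 4 fell in wild type, and 9 rose and 4 fell in the knockout. Nupr1, a stress-induced chromatin protein, rose by 2.29, and Eif2ak4, the GCN2 kinase that senses uncharged tRNA, fell by 0.79. Of 11 genes of the Myc network, 3 rose and 4 fell in wild type and 2 rose and 4 fell in the knockout. The members of that network with the largest changes were the Myc antagonists Mxd4 (-1.90), Mxd1 (0.83) and Mxi1 (-0.72).

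Cell cycle markers moved with R848 too. Of 13 tested, 12 fell in wild type and 13 in the knockout, with medians of -1.31 and -1.08; Cdc6 (-1.71), Mcm4 (-1.59) and Mcm6 (-1.56), all needed to start DNA replication, changed most in wild type, Cdc6 to values below the dim limit. Their summed level over the array values ran from 101.75 to 107.51 in wild type with saline and from 88.37 to 92.05 with R848. Their part in the fall of the nucleotide enzymes was not tested. Of 10 housekeeping genes 4 fell in each genotype, Polr2a (-0.81), Gusb (-0.54) and Hprt (-0.37) with the largest wild-type changes. Of 11 macrophage markers, 2 rose and 3 fell in wild type, and 2 rose and 4 fell in the knockout. Mertk (-1.79), Cd14 (0.67) and Csf1r (-0.34) were among those called in wild type.

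The next comparison set the Rasgef1b fl/fl vav-iCre macrophages against wild type, within the limits on that genotype given above. Most members lay lower in knockout macrophages in both treatments, by small amounts. With saline 29 of 36 differences were below 0, 80.6% beside 54.1% of all genes. With R848 there were 33, 91.7% beside 57.9%. The members' medians were -0.15 and -0.14, and those of all genes were -0.01 and -0.02. These medians kept their sign with median centring (-0.12 and -0.10) and with cyclic loess (-0.12 and -0.10), with 25 and 28 members below 0 under the first and 26 and 27 under the second. The genotype comparisons under saline and under R848 use separate arrays but share an estimate of the spread for each gene. Same-numbered knockout arrays also deviated together, so agreement between the treatments is not independent support.

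Few single genes passed. With saline 1 of 36 members was called lower and 0 higher, where 0.192% of all genes were lower and 0.142% higher, 0.334% together (limma). With R848 0 members were called, beside 0.0781% of all genes lower and 0.0568% higher, 0.135% together. An unadjusted limma p under 0.05 was found for 12 members in each treatment, 33.3% beside 12.6% of all genes with saline and 8.74% with R848. Separation of arrays was more frequent. With saline the 3 knockout arrays were all below the 3 wild-type arrays for 12 members, 33.3% against 9.43% of all genes, and with R848 for 13, 36.1% against 8.46%. By the rows used, knockout arrays were separate and higher for 0 members in either treatment, where the shares over all genes were 6.65% and 5.35%. A second row of Gart, above the dim limit, was separate and higher with saline, so Gart is counted by the row used. In both treatments at once, 7 members were separate and lower: Cad, Gart, Adss, Srm, Psat1, Mthfd1 and Mthfd1l. They make up 19.4% of the members, beside 2.01% of all genes. The share of all genes that were separate and higher in both was 1.09%, and 0 members were.

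Averaged over both treatments, which uses all 12 arrays, 6 of 36 members were called lower and 0 higher, while 1.01% of all genes were lower and 0.774% higher, 1.78% together (limma). Where arrays of the same genotype and number were treated as correlated pairs, 2 of the 6 remained, and the calls over all genes went from 142 lower and 109 higher to 59 each. An unadjusted limma p under 0.05 was found for 20 members, 55.6% beside 16.1% of all genes. The 6 called were Adss, Mthfd1l, Psat1, Srm, Mthfd1 and Cad. They come from 4 of the 7 roles, and 3 of them belong to serine synthesis and the folate cycle. In that role 7 of 8 members lay below 0, beside 56.8% of all genes. The count ran from 2 to 6 with 1 array left out: 2 were called without replicate 2 or 3 of wild type with R848 or replicate 2 of the knockout with R848, and 3 without replicate 2 of either saline group. Adss and Mthfd1l remained called under every alternative run for them.

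**Figure D3:**
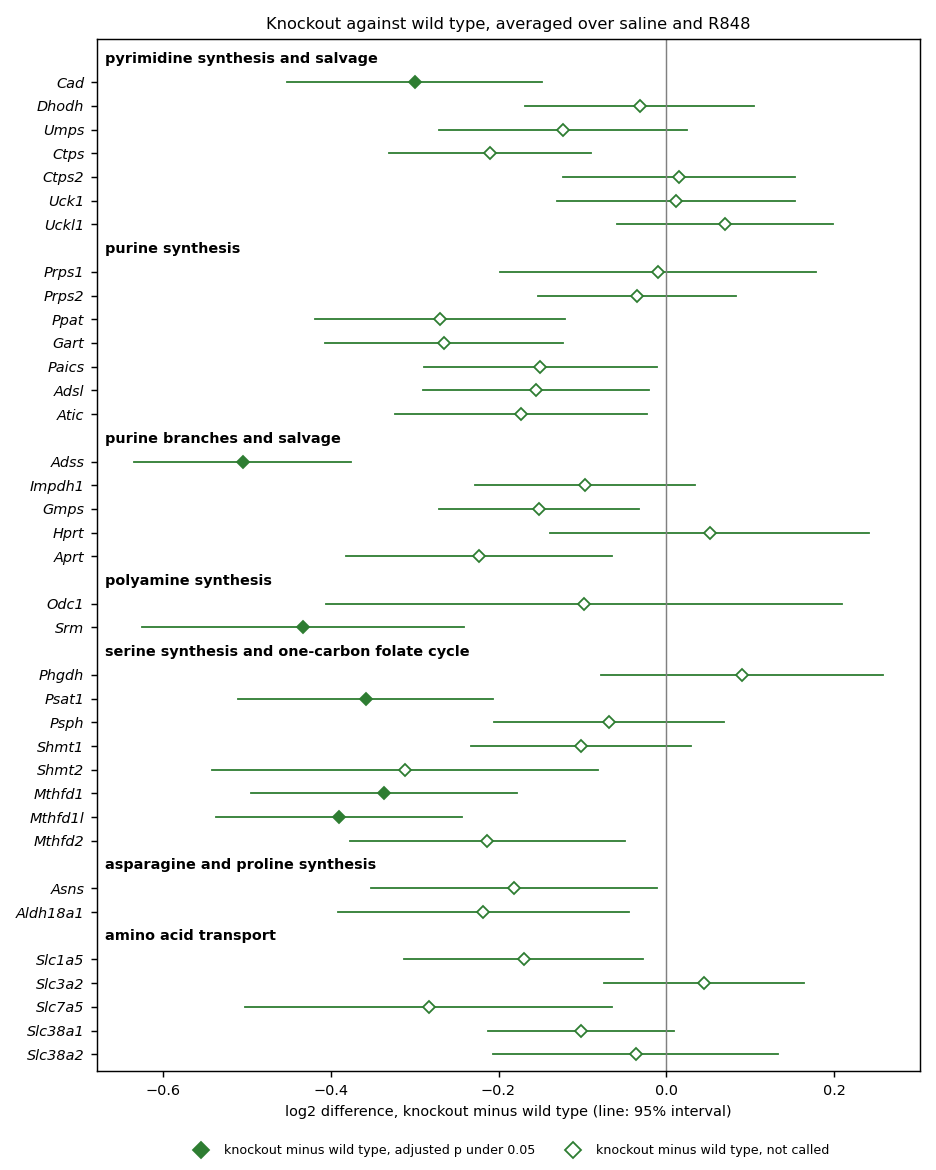
Knockout minus wild type (log2, horizontal axis), averaged over saline and R848, for the 36 members by role; lines are 95% intervals from limma over all 12 arrays, and filled symbols have an adjusted p under 0.05. The 6 filled symbols lie between -0.50 (Adss) and -0.30 (Cad), and 30 of the 36 symbols lie below 0.

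Adss, adenylosuccinate synthetase, commits the common purine precursor to adenine nucleotides, and it had the smallest p of the members in each genotype comparison. It read 8.86, 8.92 and 9.06 in wild type with saline and 8.45, 8.30 and 8.45 in the knockout. With R848 it read 8.89, 8.87 and 8.64 in wild type and 8.35, 8.30 and 8.36 in the knockout. Every knockout array lay below every wild-type array, whatever the treatment. The difference was -0.55 ± 0.09 with saline (limma adjusted p = 0.01239), -0.46 ± 0.09 with R848 (limma adjusted p = 0.05095) and -0.50 ± 0.06 averaged (limma adjusted p = 0.0009976), or 1.42-fold lower. The saline call was lost without replicate 3 of wild type or replicate 2 of the knockout, and when only those 6 arrays were fitted. With R848 the difference passed under 5 alternatives.

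The mitochondrial and cytosolic formyl-folate enzymes were both lower. Mthfd1l read 6.13, 5.83 and 5.97 in wild type with saline and 5.53, 5.43 and 5.70 in the knockout. With R848 it read 6.01, 6.0 and 5.95 in wild type and 5.78, 5.60 and 5.51 in the knockout. The groups were separate in both treatments, and the averaged difference was -0.39 ± 0.07 (limma adjusted p = 0.0158), 1.31-fold lower. Mthfd1, with its values given above, was separate too, at -0.34 ± 0.07 averaged (limma adjusted p = 0.0357), 1.26-fold lower, and its call was lost under 11 of 21 alternatives.

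Psat1, the aminotransferase of serine synthesis, read 7.07, 7.04 and 7.19 in wild type with saline and 6.79, 6.81 and 6.60 in the knockout. With R848 it read 6.93, 7.24 and 7.11 in wild type and 6.62, 6.69 and 6.92 in the knockout. The R848 groups were separated by only 0.01, and the averaged difference was -0.36 ± 0.07 (limma adjusted p = 0.02407), 1.28-fold lower. The other enzymes of serine synthesis were not called, at 0.09 for Phgdh and -0.07 for Psph. Mthfd2, which rose with R848, was lower in all 3 knockout saline arrays (-0.39, limma adjusted p = 0.134) and differed by -0.04 with R848.

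Srm and Cad complete the 6. The Srm values given above were separate in both treatments, with an averaged difference of -0.43 ± 0.09 (limma adjusted p = 0.02743), 1.35-fold lower, whereas Odc1, the step before, differed by -0.10 (limma adjusted p = 0.7996). Cad read 5.50, 5.57 and 5.39 in wild type with saline and 5.29, 5.03 and 5.24 in the knockout. With R848 it read 5.62, 5.45 and 5.43 in wild type and 5.40, 5.08 and 5.12 in the knockout, again without overlap. Its averaged difference was -0.30 ± 0.07 (limma adjusted p = 0.04715), 1.23-fold lower, a call lost under 14 of 21 alternatives. The calls of Cad, Srm, Psat1 and Mthfd1 were all lost when arrays of the same genotype and number were treated as correlated pairs. Gart, separate in both treatments by the row used, was at -0.27 (limma adjusted p = 0.05885). Its second row gave 0.46 with saline, where every knockout array was higher, and -0.06 with R848, so no direction is given for Gart. Ppat was at -0.27 (limma adjusted p = 0.06349).

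**Figure D4:**
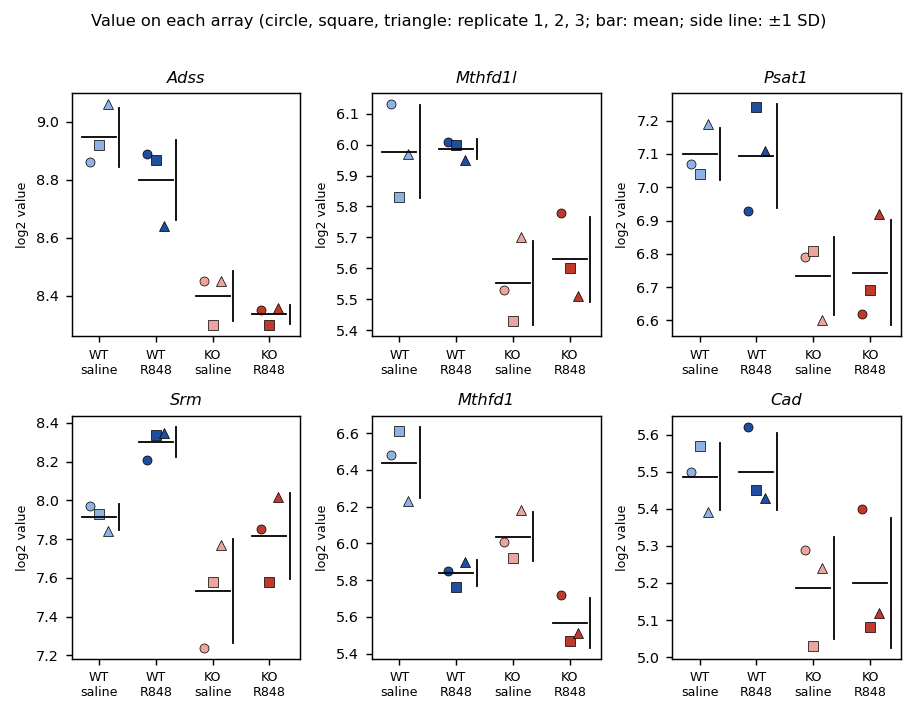
Log2 value on each of the 12 arrays for the 6 members called lower in the knockout over both treatments; symbols mark the replicate, bars the group mean and side lines 1 SD (n = 3). Knockout arrays lie below wild-type arrays of the same treatment for each gene, by as little as 0.01 for Psat1 with R848.

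A gene outside the list gave a larger difference on the same route. Uck2, the uridine-cytidine kinase related to Uck1, read 7.19, 7.45 and 7.30 in wild type with saline and 6.21, 6.30 and 6.51 in the knockout. With R848 it read 7.72, 7.72 and 7.47 in wild type and 7.09, 6.41 and 6.86 in the knockout. It was lower by 0.91 ± 0.10 averaged (difference -0.91, limma adjusted p = 0.00055), whereas Uck1 differed by 0.01 and Uckl1 by 0.07. The counts of called genes here and in the next paragraph stand beside 1.01% of all genes lower and 0.774% higher, averaged over treatments. Among 21 other pyrimidine and deoxynucleotide genes 2 were lower, Uck2 and Dtymk (-0.25), and 1 higher, Cmpk2 (0.52). Among 12 other purine genes 1 was lower, Mtap (-0.33), and 1 higher, Xdh (0.34). Sfxn1, a mitochondrial serine carrier, was lower by 0.34 (difference -0.34), the only 1 called of 18 other serine, glycine and folate genes. Among the amino acid stress response genes 1 of 21 passed, Tars (-0.30). None of 14 polyamine genes and none of 12 glutamine, aspartate, proline and branched-chain enzymes passed (0 in each, limma). At an unadjusted limma p under 0.05 there were 2 in each, beside 16.1% of all genes. Of the 17 other transporters 1 was called, Slc7a11, whose saline values lie below the dim limit, so its averaged difference is not given.

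Other measures moved with the genotype as well. Myc was lower in the knockout at -0.40 ± 0.09 averaged (limma adjusted p = 0.036), while Atf4 differed by -0.04 (limma adjusted p = 0.764). All 13 cell cycle markers lay below 0, beside 56.8% of all genes, with a median of -0.33 and 1 called, Mcm3 (-0.45). Their summed level ran from 98.04 to 104.85 in knockout saline arrays and from 83.89 to 89.08 in knockout R848 arrays, ranges that overlap those of wild type under the same treatment. Macrophage markers went the other way. Averaged over treatments, all 11 lay above 0, beside 42.5% of all genes, with a median of 0.065 and 0 called (limma). With saline, the highest wild-type sum of these markers was 117.77, and the lowest knockout sum was 118.11. With R848 the sums overlapped, the highest wild-type sum being 116.13 and the lowest knockout sum 115.64. The part of these measures in the lower supply genes was not tested. Replicate 2 of the knockout with R848 was the lowest array of its group for 22 of 36 members and the highest for 2, with a mean over the members of 6.83 beside 6.96 and 6.97. It also had the lowest Rasgef1b value of its group.

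The last comparison asked whether the response to R848 differed between genotypes. For 0 of 36 members did the interaction pass (limma, smallest adjusted p = 0.9739), and 0.0142% of all genes passed, 0.0071% in each direction. An unadjusted limma p under 0.05 was found for 1 member, 2.78% beside 4.93% of all genes, and it was Mthfd2. Its rise was larger in the knockout by 0.35 (95% interval 0.03 to 0.68). The next smallest p-values belonged to Aldh18a1 (-0.28, interval -0.62 to 0.07), Umps (0.18, interval -0.12 to 0.48) and Shmt2 (-0.28, interval -0.74 to 0.18). Shmt2 read 8.15, 8.21 and 8.18 with saline and 8.19, 8.60 and 8.21 with R848 in wild type, and 7.88, 7.90 and 8.24 with saline and 7.95, 7.52 and 8.18 with R848 in the knockout. Its lowest value was replicate 2 of the knockout with R848. Srm, Slc3a2 and Ctps, called in wild type alone, had interaction values of -0.10, -0.05 and -0.11, and Phgdh, called in the knockout alone, had 0.19, so a difference in response was not shown for any of them. The intervals rest on 3 arrays per group. A member that did not pass could still differ in response by an amount inside its interval.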

How the data were processed

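The authors used Affymetrix Expression Console and RMA, per the submitters' processing notes, which give no version or setting. What they deposited are log2 values, which RMA brings to nearly the same distribution on every array (medians 4.49 to 4.57), so a change in total RNA per cell is not visible and differences of dim rows are compressed. The platform table named 23521 of 34472 rows with 1 symbol. A gene with several rows was represented by its brightest row (mean of the 12 arrays). A gene was tested if it exceeded the 40th percentile (4.31 to 4.35) on at least 3 arrays, which left 14079 genes.

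Groups and replicate numbers came from the titles. All 12 arrays entered 1 model per gene (limma 3.58.1, R 4.3.3, group means, no covariate), with Benjamini-Hochberg adjustment over all 14079 genes in each contrast and a threshold of 0.05. No array scan date or strip was used here. The members and lists were chosen with earlier results of these data known. Values on every array are given for, in each role, the 2 members past the threshold with the largest R848 change in wild type, for members called in a genotype contrast, for the 4 smallest p-values where fewer than 6 were called, and for paralogues where a result turns on them; Rasgef1b, Myc, Atf4 and Uck2 are always given, as are up to 3 called genes per list. Same-numbered knockout arrays deviated together (residual correlations 0.27, 0.17 and 0.28), although no label pairs them. Replicates 1 and 3 gave similar values between other groups, such as 0.28 and 0.23 for wild type with R848 and knockout with saline, where replicate 2 gave 0.01. The shared deviation was therefore not particular to the knockout arrays. A run on simulated data tested the fit, with a log2 change of 0.5 put into known genes. Of these, 83% passed for R848 in the knockout, 81.5% for genotype with R848 and 25% for the interaction. The simulated arrays were independent and the change was put into the knockout R848 group alone, so these shares may not hold for the real arrays. Upstream windows are RefSeq's (GRCm38.p6). Alternatives were the filter, the scaling between arrays, trend and robust spread, array weights, the replicate block, correlated pairs, the arrays fitted, the rows of a gene and each array left out.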

Additional observations from a re-analysis of the deposited data

How the results depend on the processing

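Over 54 member results (the called values in each contrast and, for genotype and interaction contrasts with under 6 calls, the 4 smallest p-values) and 23 settings, 1092 of 1194 values kept their direction and side of the threshold, 97 kept the direction and no longer passed, 5 newly passed and 0 reversed. The counts moved more. Of 12 members lower with R848 in wild type, 6 passed with median centring and 8 with cyclic loess; with 1 array left out the count ran from 6 (without wild-type saline replicate 3) to 13, and it was 7 without wild-type R848 replicate 3. Of 7 members higher there, 4 to 7 passed with 1 array left out, 4 without wild-type R848 replicate 2. For the knockout, 8 in place of 5 rose with median centring and with cyclic loess. The single lower member with saline (Adss) became 0 when only the arrays compared were fitted and 0 to 1 with an array left out. With R848 the 0 became 1 (Adss) with trend and robust spread, the stricter filter, array weights, the mean of a gene's rows, and without wild-type R848 replicate 3, a range of 0 to 1. Over both treatments the 6 became 2 with correlated pairs, 9 with array weights and 2 to 6 with an array left out. The causes were not tested. The replicate block changed no call of a member other than those of Uckl1 and Ppat: 7 rose and 13 fell in wild type, 5 rose and 13 fell in the knockout, also with the knockout arrays alone (an alternative added after seeing the data), and 7 were lower over both treatments, the added gene being Ppat (limma adjusted p = 0.02295). Uckl1 in wild type passed as well (limma adjusted p = 0.04689). Signal over background limits the members near the dim limit, such as Phgdh and Psph.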

Other observations

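Among the genes beside the list, Slc7a11, the cystine importer, read 3.57, 3.44 and 3.47 in wild type with saline and 7.97, 7.14 and 7.63 with R848, and 3.38, 3.46 and 3.48 with saline and 6.82, 6.60 and 6.37 with R848 in the knockout. Its saline values lie below the dim limit, and it passed the filter through its R848 arrays. With R848 the knockout was lower by 0.98 (difference -0.98, limma adjusted p = 0.02143), and the interaction did not pass (limma adjusted p = 0.7457). Slc25a32, which carries folate into mitochondria, was lower in the knockout with saline (-0.47, limma adjusted p = 0.04608) and differed by -0.03 with R848.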
